A study of Rattus norvegicus with 54 samples.

Results

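The hearts of WRF rats, which worked during the light hours and could not eat while they worked, were compared between the light and the dark hours. The rats were chosen by the time in their names: 7 WRF rats taken at ZT1, ZT5, or ZT9 (zeitgeber time, hours after lights on) against 9 taken at ZT13, ZT17, or ZT21, 16 of the 54 rats of the series. All were wild-type male Wistar rats, housed singly with 12 h of light a day. They were about 7 to 8 weeks old when exposed to the protocol, and hearts were taken after its 5 weeks. C rats (n = 18) were left undisturbed with free food, W rats (n = 18) spent their working hours in a slowly turning drum with food always present, and WRF rats did the same work with food only outside it. All rats were killed on a day without work and with free food, so light and dark here mean the hour of the clock, not work against rest. Gene expression was measured as fpkm, the fragments mapped to a gene relative to transcript length and library size, in crushed whole hearts with their atria, and each value is 1 rat.

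Ckm, the muscle creatine kinase, was 1274 to 2734 fpkm in the 16 rats, and the libraries of WRF51 (31.5 fpkm) and WRF62 (170 fpkm) were left out for it. Myl7, the light chain of atrial muscle, had a lowest, median, and highest value of 4.33, 90.6, and 10519 fpkm in the light rats and 3.37, 674, and 23938 fpkm in the dark rats, so the atrial signal differed widely among hearts. The 10 atrial markers measured summed to 95.8 to 25082 fpkm in the light rats and 127 to 55454 fpkm in the dark rats, with a median light minus dark difference of -0.65 on the log2 scale, and 0 of them reached an unadjusted p under 0.05. For 10 of the 16 rats the sampling time in the name is not the one other labels give, and for 4 of them those labels put a light rat in the dark or a dark rat in the light. In a whole heart, fewer cells of a type and less RNA per cell cannot be told apart.

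Nearly every cell keeps time with a loop of transcription factors. ARNTL (BMAL1), paired with CLOCK or NPAS2, binds E-boxes and turns on the Per and Cry genes, whose proteins then shut the pair off, and the receptors REV-ERB (Nr1d1, Nr1d2) repress Arntl through ROR elements. The factors DBP and TEF carry the rhythm onward through D-boxes, and glucocorticoid hormone, which peaks in rats near the onset of darkness, carries it from the brain to peripheral tissues such as the heart.

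To show the letters through which this loop is known to act, the promoter windows of the clock genes and of the genes described below were searched on both strands, from 250 bases before to 50 after the start (RefSeq, GRCr8; 38 of 47 genes matched, Arntl through its current symbol). The E-box CACGTG was found in 4 of the 15 clock genes matched against 6.42% of all 33469 promoters, the D-box TTATGTAA in 1 against 0.893%, and the ROR element TAGGTCA in 1 against 2.63%. A gene counts with a match in any of its promoters, and 6 of the matched genes have more than 1. Counts of genes and shares of promoters are therefore unlike measures. Of the 30 genes named below for their small p, 24 were matched and 3 held an E-box, Nr1d1 among them. The stretches before the start follow, 5′ to 3′ on the strand of the gene, with the matches in capitals: Ciart at chr2:186112247-186112359 (minus strand), Nr1d1 at chr10:84229620-84229665 (minus), Bhlhe40 at chr4:143174210-143174255 (plus), Tef at chr7:115206609-115206654 (plus), Per2 at chr9:99497158-99497205 (minus), Arntl at chr1:176766292-176766327 (plus), and, among those 30 genes, Slc41a3 at chr4:124684748-124684793 (plus) and Rhobtb1 at chr20:19402081-19402126 (minus).
Ciart, E-box: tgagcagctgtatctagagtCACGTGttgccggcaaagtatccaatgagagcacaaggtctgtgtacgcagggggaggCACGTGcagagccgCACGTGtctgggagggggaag
Nr1d1, E-box: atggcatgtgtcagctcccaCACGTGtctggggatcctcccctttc
Bhlhe40, E-box: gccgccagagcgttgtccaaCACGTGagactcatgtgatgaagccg
Tef, E-box: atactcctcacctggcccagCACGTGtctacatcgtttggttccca
Per2, D-box: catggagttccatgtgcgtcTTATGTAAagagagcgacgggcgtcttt
Arntl, ROR element: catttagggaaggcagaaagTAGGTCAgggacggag
Slc41a3, E-box: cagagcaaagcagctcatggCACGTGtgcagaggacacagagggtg
Rhobtb1, E-box: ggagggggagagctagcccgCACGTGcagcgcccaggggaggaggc
The other D-box form (TTACGTAA, 0.12% of all promoters), the ROR element TGGGTCA (4.09%), the cAMP response element TGACGTCA (1.83%), the glucocorticoid response element (0.439%), and the heat shock element (0.798%) had 0 matches in these genes. Naa60, a further gene of the comparison, held a D-box across its start. A match is a run of letters and not a bound site.

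No gene separated light from dark in WRF hearts once all 10257 genes were accounted for. With limma and Benjamini-Hochberg adjustment, 0 genes were called (0%), the smallest adjusted p being 0.248, and 271 genes (2.64%) had an unadjusted p under 0.05. Of these, 108 (1.05%) had the higher mean in the light and 163 (1.59%) in the dark; without the series WRF1 to WRF6 the split turned to 179 and 56. The exact Mann-Whitney test also called 0 genes, with 220 at an unadjusted p under 0.05, and in 0 genes (0%) did all rats of one group lie above all rats of the other. The genes below are therefore given with values that did not pass the test, and are set beside the same comparison in the C rats, which shares no animal with it. Differences are light minus dark in mean log2(fpkm + 1), with their standard error (SE), and the exact p given beside them is the unadjusted Mann-Whitney p of the gene alone. Between light and dark WRF rats, no gene had a limma adjusted p under 0.248. Counts at an unadjusted p under 0.05 are those of limma throughout.

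Of 24 genes in 3 lists (activators, repressors, and the D-box factors with Nfil3), 18 were measured, and 8 of them (44.4%, against 2.64% of all genes) had an unadjusted p under 0.05, 3 higher in the light and 5 higher in the dark. With the times of the other labels the count went from 2 to 0 among the activators and from 5 to 3 among the repressors. Without the series WRF1 to WRF6 each of these counts was 1, and that of the D-box factors 0.

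The 3 activators measured all had a higher light mean. Npas2, the partner of ARNTL, had a lowest, median, and highest value of 0.692, 2.26, and 4.69 fpkm in the light and 0.310, 0.609, and 2.44 fpkm in the dark (0.82 ± 0.25 SE, exact p = 0.0115). Of the dark rats 6 lay below every light rat, and WRF54 was alone above 1 fpkm among them. Arntl spanned 0.934 to 13.4 fpkm in the light (median 6.00) and 0.510 to 8.60 fpkm in the dark (median 1.67). The groups overlapped widely (0.87 ± 0.47 SE, exact p = 0.114), and each held high and low times, with means of 8.84 fpkm at ZT1 and 1.02 fpkm at ZT9 in the light and of 0.706 fpkm at ZT13 and 6.00 fpkm at ZT21 in the dark. Clock, which pairs with ARNTL, differed less, with medians of 3.33 fpkm in the light and 2.41 fpkm in the dark (0.30 ± 0.14 SE, exact p = 0.0907).

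Among the repressors, Nr1d1 went the way of the activators and the Per and Cry genes the other way. Nr1d1, which encodes REV-ERBα, was 9.88 to 41.3 fpkm in the light (median 32.1) and 2.65 to 27.9 fpkm in the dark (median 9.84), a difference of 1.2 ± 0.39 SE (exact p = 0.00787). Of the 7 light rats 4 lay above all dark rats, and the difference was 1.43, 1.26, and 0.96 in the 3 series of rats. Nr1d1 was among the genes chosen for 1 sign in the 3 series, so that shared sign is no test. With WRF62 (ZT5) and WRF51 (ZT9) left out, the series also do not compare the same times. Per2, which closes the loop with CRY, was 1.02 to 5.77 fpkm in the light (median 1.33) and 1.53 to 7.58 fpkm in the dark (median 4.62; -0.87 ± 0.28 SE, exact p = 0.0164). The 5 light rats of ZT1 and ZT5 lay below all 9 dark rats, while the 2 rats of ZT9 lay among them.

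Per1 (-0.77 ± 0.31 SE, exact p = 0.0712), Cry1 (-0.44 ± 0.16 SE, exact p = 0.0229), and Cry2 (-0.38 ± 0.13 SE, exact p = 0.0229) also had the higher dark mean, with groups that overlapped. The other 7 repressors did not reach an unadjusted p under 0.05. Per3 (-0.41 ± 0.35 SE, exact p = 0.408) and Bhlhe40 (0.33 ± 0.26 SE, exact p = 0.408), which encodes a repressor acting on E-boxes, had the larger differences among them. Nr1d2 (exact p = 0.918), the second REV-ERB, Ciart (exact p = 0.681), a repressor of the ARNTL pair, and Csnk1d (exact p = 0.351) and Csnk1e (exact p = 0.837), the kinases that mark PER, had differences between -0.12 and 0.06.

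Of the output factors, Tef was 9.82 to 37.9 fpkm in the light (median 11.9) and 16.8 to 38.4 fpkm in the dark (median 30.2; -0.78 ± 0.25 SE, exact p = 0.0311). Here too the 5 rats of ZT1 and ZT5 lay below every dark rat, and WRF41 at ZT9, with 37.9 fpkm, lay among the highest. Dbp, the founding D-box factor, had a difference of -0.21 ± 0.59 SE (exact p = 0.758) although its time means spanned 10.03 fpkm at ZT21 to 79.5 fpkm at ZT9. Nfil3, the repressor at the same D-boxes, had medians of 8.26 fpkm in the light and 9.55 fpkm in the dark (exact p = 0.408).

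How far the split into light and dark hides a gene depends on where its peak sits, so the 16 rats were also tested for any difference among the 6 times (limma F test, 2 or 3 rats a time, added after seeing the data). It called 2 genes of 10257 (0.0195%), and both are clock genes: Tef (adjusted p = 0.0255) and Per3 (adjusted p = 0.0299), the second of which had an exact p of 0.408 between light and dark. Per3 was lowest at ZT5 with a mean of 0.788 fpkm and highest at ZT9 with 4.47 fpkm, next to 4.42 fpkm at ZT13. Rhobtb1, Tsc22d3, Arntl, and Per2 followed at an adjusted p of 0.0660. In all, 13 of the 18 clock genes reached an unadjusted p under 0.05 in this test, against 3.32% of all genes, and 14 of the 18 had their highest mean at the same time in WRF and C rats. All of these results rest on the times in the names, which other labels contradict for 10 of the 16 rats. The F test was not run with the times of the other labels.

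**Figure D1:**
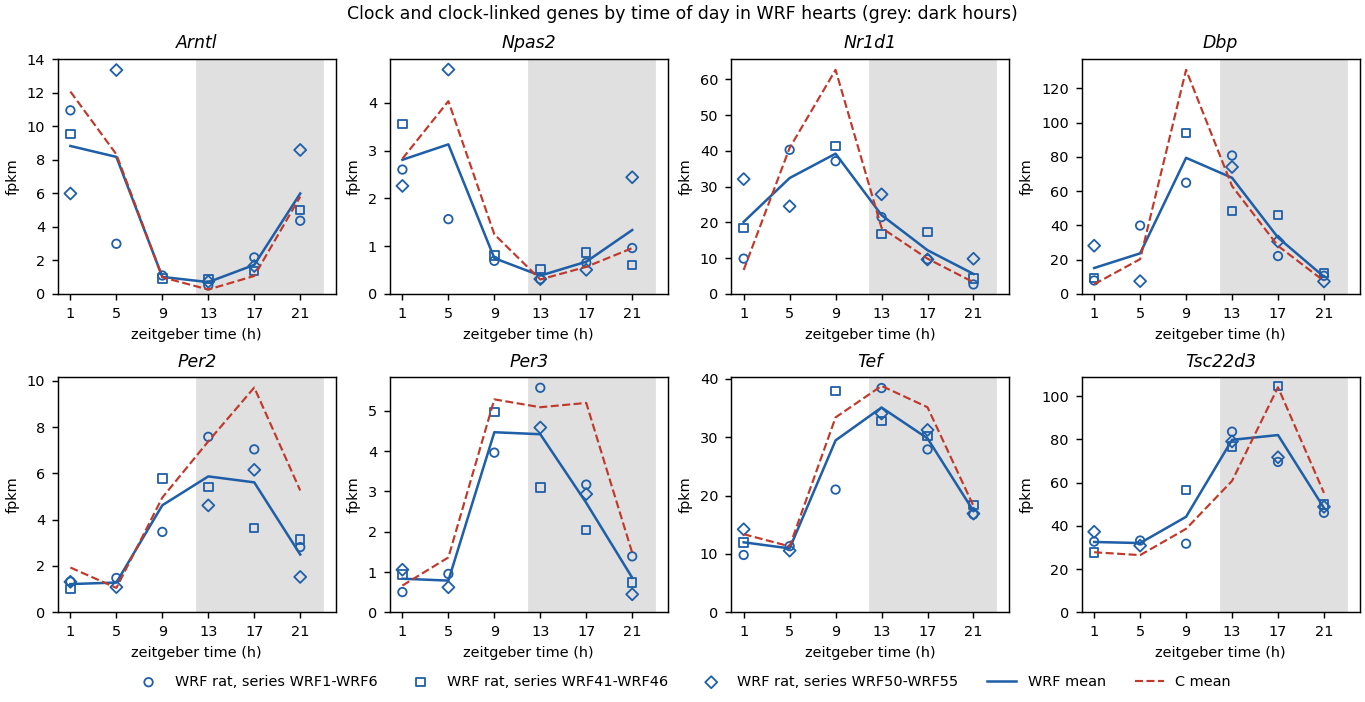
fpkm (y axis) against zeitgeber time in hours (x axis) for 8 genes; each point is 1 of the 16 WRF rats, its shape the series, the solid line the WRF mean and the dashed line the C mean (3 rats a time), with dark hours in grey. Arntl and Npas2 are high at ZT1 and ZT5, Nr1d1 and Dbp peak at ZT9, and Tef, Per2, and Tsc22d3 are highest at ZT13 or ZT17.

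The smallest p-values of the whole comparison belonged to genes that were higher in the dark. Tsc22d3, the glucocorticoid-induced leucine zipper, was 27.6 to 56.6 fpkm in the 7 light rats (median 32.7) and 46.03 to 104.7 fpkm in the 9 dark rats (median 71.7). Its means were 35.7 ± 9.66 (SD, n = 7) and 70.0 ± 19.2 fpkm (SD, n = 9), a difference of -0.94 ± 0.17 SE (limma adjusted p = 0.248). The difference was -0.96, -0.88, and -0.92 in the 3 series. Tsc22d3 too was among the genes chosen for 1 sign in the 3 series, so these values are a description. Only WRF41, at ZT9, overlapped with the dark rats. When the means of the 3 light and the 3 dark times were compared, with the spread taken within times, Tsc22d3 was the 1 gene called. Its difference hardly moved there (-0.92).

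Fkbp5, a co-chaperone of the glucocorticoid receptor that the receptor itself induces, was 3.89 to 10.7 fpkm in the light (median 7.07) and 10.1 to 16.3 fpkm in the dark (median 12.7; -0.83 ± 0.16 SE, limma adjusted p = 0.248). All light rats but WRF50 lay below all dark rats. Fmo2, a flavin monooxygenase, was 4.47 to 9.39 fpkm in the light (median 6.81) and 8.62 to 26.2 fpkm in the dark (median 14.6; -0.99 ± 0.19 SE, limma adjusted p = 0.248), and of the dark rats 8 lay above every light rat.

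The 24 measured genes of a list of 26 glucocorticoid-responsive genes had a median difference of -0.24, against -0.01 for all genes. Of the 24, 0 were called, 6 had an unadjusted p under 0.05 and the higher dark mean (1.59% of all genes), and 0 had one with the higher light mean (1.05%). Beside Tsc22d3, Fkbp5, and Per1 these were Sult1a1, a phenol sulfotransferase (-0.76 ± 0.23 SE, exact p = 0.00787), Ddit4, an inhibitor of the growth kinase mTORC1 (-0.77 ± 0.24 SE, exact p = 0.0418), and Glul, glutamine synthetase (-0.42 ± 0.16 SE, exact p = 0.0311). Ddit4 was 7.84 to 26.8 fpkm in the light (median 9.79) and 15.2 to 34.4 fpkm in the dark (median 18.3), and 5 light rats lay below all dark rats. Per1 and Tsc22d3 also stand in clock lists. In the C rats the list had a median of -0.39 with 13 members at an unadjusted p under 0.05, against 4.48% of all genes, each higher in the dark. Without the series WRF1 to WRF6 the count of 6 was 2 and the median -0.05, with the times of the other labels it was 1 and 0.05, and with Myl7 as a covariate 7 and -0.23.

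The 15 genes of smallest p with the higher dark mean, each of at least 5 fpkm and of one sign in the 3 series, spanned differences of -0.39 to -1.13, with unadjusted limma p-values of 3.84e-05 to 0.00383. Wee1, the kinase that holds cells back from mitosis and a known clock output, was 3.04 to 6.88 fpkm in the light (median 4.15) and 4.61 to 13.01 fpkm in the dark (median 8.25; -0.79 ± 0.18 SE, exact p = 0.00210). Herpud1, a part of the machinery that clears misfolded proteins from the endoplasmic reticulum, was 43.7 to 103 fpkm and 66.6 to 116 fpkm (medians 59.4 and 97.6; -0.64 ± 0.16 SE, exact p = 0.00332). For both, the groups overlapped, and for Herpud1 through the single rat WRF41.

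Gsta1, a glutathione transferase, had the largest difference of the 15, with medians of 25.1 fpkm in the light and 52.2 fpkm in the dark (-1.13 ± 0.27 SE, exact p = 0.00332). Rhobtb1, whose promoter E-box is printed above, had medians of 5.195 and 13.01 fpkm (-0.96 ± 0.27 SE, exact p = 0.0115). Tut1, which adds uridines to small RNAs (-0.86 ± 0.20 SE), Mid1ip1 (-0.54 ± 0.15 SE), a regulator of fatty acid synthesis, Tinagl1 (-0.48 ± 0.14 SE), a matrix glycoprotein, and Bcl2l1, which encodes the survival factor BCL-XL (-0.47 ± 0.12 SE), followed. Amd1, which makes the aminopropyl donor for polyamines (-0.42 ± 0.13 SE), and Naa60, an N-terminal acetyltransferase (-0.39 ± 0.11 SE), closed the list.

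The 15 genes of smallest p with the higher light mean, chosen in the same way, were farther from the threshold, with unadjusted limma p-values of 0.00123 to 0.0112 and differences of 0.27 to 1.2. The minimum of 5 fpkm left out Col5a3 and Spon2, which also had the higher light mean. Their unadjusted limma p-values were 0.000150 and 0.000195. Tfrc, the transferrin receptor through which cells take up iron, was 11.1 to 22.9 fpkm in the light (median 13.6) and 5.63 to 14.7 fpkm in the dark (median 8.69; 0.68 ± 0.18 SE, exact p = 0.00787). Thra, the thyroid hormone receptor α, was 18.8 to 33.2 fpkm and 16.8 to 23.1 fpkm (medians 23.02 and 18.8; 0.37 ± 0.11 SE, exact p = 0.0115). Cdh2, the cadherin that joins heart muscle cells, had medians of 40.1 and 31.3 fpkm (0.43 ± 0.14 SE, exact p = 0.0115), and the magnesium transporter gene Slc41a3 medians of 31.6 and 15.5 fpkm (0.88 ± 0.29 SE, exact p = 0.0229). In each of the 4, light and dark rats overlapped, with 1 to 3 light rats above all dark rats.

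Bcl6b, a transcriptional repressor, had 6 of 7 light rats above all dark rats, at medians of 8.05 and 6.03 fpkm (0.42 ± 0.12 SE, exact p = 0.00210). Also in this set were Efhd1, a calcium-binding protein of mitochondria (0.76 ± 0.20 SE), Ddit4l2 (0.57 ± 0.20 SE), Fgf12 (0.41 ± 0.14 SE), and the semaphorin receptor gene Plxnd1 (0.33 ± 0.11 SE). Sh3bp5 (0.33 ± 0.11 SE), Adcy5, the main adenylyl cyclase of heart muscle together with Adcy6 (0.31 ± 0.11 SE), Man1c1, a mannosidase of the Golgi (0.30 ± 0.10 SE), and the chemokine gene Cxcl12 (0.27 ± 0.09 SE) completed it. With WRF51 and WRF62 put back, Cdh2, Adcy5, Fgf12, and Ddit4l2 changed sign.

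**Figure D2:**
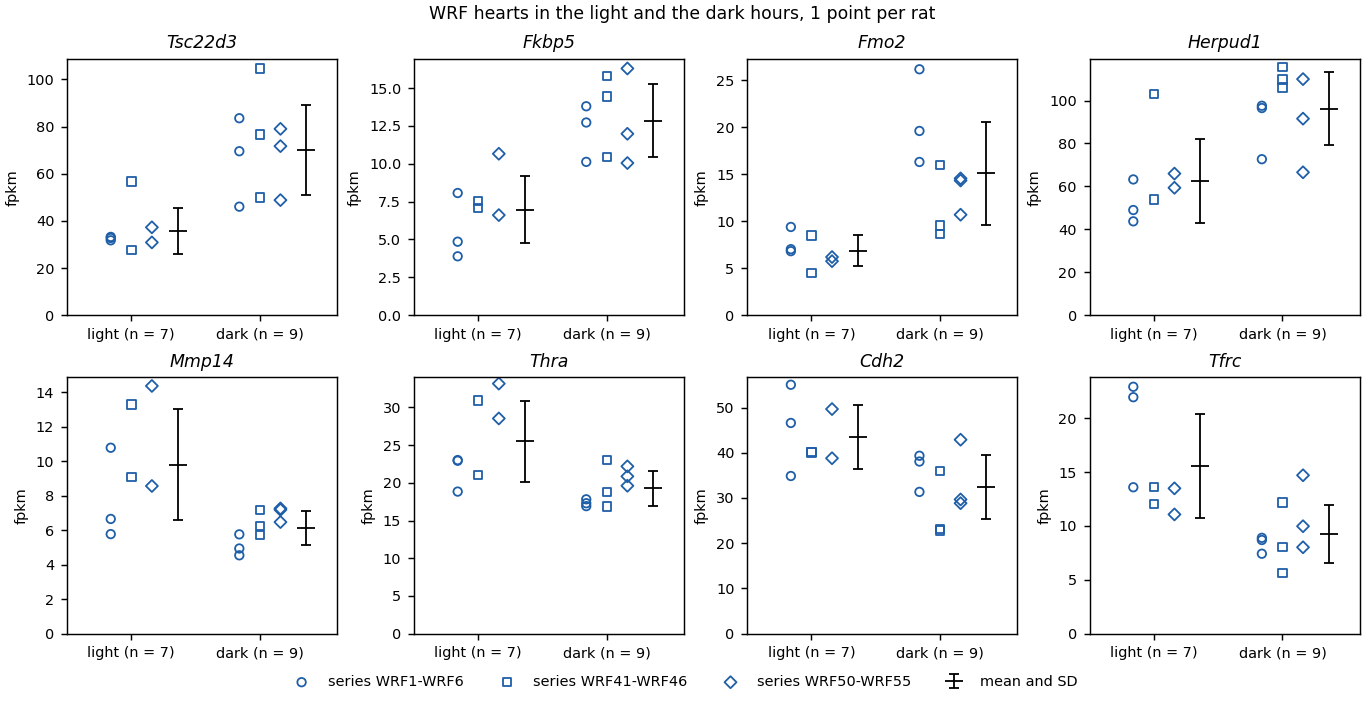
fpkm (y axis) of 8 genes in the light and the dark WRF rats; each point is 1 rat, its shape the series, and the bars are the mean and SD (n = 7 and n = 9). In the upper row the light rats lie below nearly all dark rats with WRF41 (a square) as the high light rat in Tsc22d3 and Herpud1, and in the lower row the higher light means overlap with the dark rats.

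In the list of fibrillar collagens and matrix genes (31 of 32 measured, median -0.08), 0 were called. An unadjusted p under 0.05 was found for 3 with the higher light mean (1.05% of all genes) and 1 with the higher dark mean (1.59%). Col5a3, a chain of the regulator collagen V, was 3.66 to 10.01 fpkm in the light (median 6.69) and 1.62 to 6.77 fpkm in the dark (median 2.41; 1.01 ± 0.21 SE, exact p = 0.00210). All dark rats but WRF54 lay below all light rats, and without WRF54 it was the 1 gene called, at 1.14. Leaving out that rat removes the overlap itself, so this call is a description and not a test. Mmp14, a membrane-bound metalloproteinase that cuts collagen, had medians of 9.06 and 6.23 fpkm (0.55 ± 0.16 SE, exact p = 0.0115), and Lox, which crosslinks collagen, was low, with medians of 1.09 and 0.562 fpkm (0.49 ± 0.15 SE, exact p = 0.0115).

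With Myl7 as a covariate the counts of matrix genes were 5 and 0 and the median 0.02. Among the main fibrillar collagens, Col1a1 (exact p = 0.918) and Col3a1 (exact p = 0.606) had differences of -0.04 and -0.06. The 10 fibroblast markers, which include Col1a1 and Col3a1, had differences below 0 in 10 of 10 and a median of -0.19, with 0 at an unadjusted p under 0.05. They summed to 1325 to 2180 fpkm in the light and 1314 to 3285 fpkm in the dark. Whether the fibroblast share had a part in the matrix genes was not tested.

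Of the heat shock proteins (28 of 29 measured, median -0.07), 25 had the higher dark mean and 24 after median-of-ratios scaling, where of all 10257 genes 5599 and 5075 did. Of the 25, 3 had an unadjusted p under 0.05, against 1.59% of all genes. Hspa8, the constitutive HSP70, was 119.9 to 156 fpkm in the light (median 129.6) and 128 to 207.5 fpkm in the dark (median 169; -0.33 ± 0.10 SE, exact p = 0.00524), with 7 of 9 dark rats above all light rats. Its co-chaperones Dnaja1 (-0.37 ± 0.13 SE, exact p = 0.0418) and Dnajb1 (-0.44 ± 0.17 SE, exact p = 0.0115) had the same sign. Without the series WRF1 to WRF6 the count was 0. The cold-inducible Cirbp and Rbm3 had differences of 0.20 and 0.08 (exact p = 0.174 and 0.837).

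Other lists held few members past an unadjusted p of 0.05, which 2.64% of all genes passed. In the lists named here the share ran from 2.86% (endoplasmic reticulum) to 27.3% (further clock outputs). In the list of further clock outputs (11 of 12 measured) there were 3, Tsc22d3, Wee1, and Por, the reductase that feeds cytochromes P450 (-0.44 ± 0.15 SE, exact p = 0.0418). The FoxO and atrophy list (25 of 25 measured) held Ddit4, the autophagy receptor gene Sqstm1 (-0.24 ± 0.09 SE), and the autophagy kinase gene Ulk1 (0.25 ± 0.10 SE). The autonomic list (27 of 30 measured) held Adcy5 and the adrenergic receptor gene Adra1b (0.23 ± 0.10 SE), both with the higher light mean, and the ion channels (30 of 32 measured) Kcnd2, a channel of the transient outward current (0.39 ± 0.16 SE), and Kcna5, of the ultrarapid current (-0.35 ± 0.15 SE). Both potassium channel genes were low, at light medians of 1.66 and 0.535 fpkm. The list for the endoplasmic reticulum (35 of 39 measured) held Herpud1, the polyamine list (11 of 13) Amd1, the amino acid response (17 of 22) Mthfd2 (-0.36 ± 0.15 SE) and Cebpb (-0.63 ± 0.29 SE), and the dual-specificity phosphatases (15 of 16) Dusp26 (-0.34 ± 0.12 SE) and Dusp7 (-0.38 ± 0.16 SE).

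For most genes of energy supply and contraction no difference could be seen. The counts below stand against 2.64% of all genes. The PPARα targets (33 of 34 measured), the genes of glucose uptake and insulin signalling (29 of 32), complex I (42 genes) and complexes II to V (48 genes), the sarcomere (25 of 30), calcium cycling (28 of 33), natriuretic and hypertrophy genes (14 of 17), endosomal sorting (53 of 55), the proteasome (40 genes), and DNA replication (19 of 24) had 0 members at an unadjusted p under 0.05. Sterol and fatty acid synthesis (32 of 36) had 1, Msmo1, a demethylase of cholesterol synthesis (0.24 ± 0.11 SE), citric acid cycle and glycolysis (36 of 38) 1, Aldoc (-0.43 ± 0.20 SE), the mitochondrial ribosome (71 genes) 1, Mrpl46 (0.17 ± 0.08 SE), and lysosome and autophagy (53 of 54) Sqstm1 and Ulk1. The 81 cytosolic ribosomal protein genes had a lower light mean in 80, also after median-of-ratios scaling, with a median of -0.12 (-0.11 scaled) and 0 at an unadjusted p under 0.05. Without the series WRF41 to WRF46 it was 62 of 81, with a median of -0.04.

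Of the 13 lists of cell markers, those of T and B lymphocytes and of lung epithelium held 1 gene each at an unadjusted p under 0.05 (2.64% of all genes), Cd79b of B cells (0.37 ± 0.17 SE) and Hopx (-0.44 ± 0.19 SE), and the 11 others 0. Of the lung list 3 of 9 genes were measured, with a median of 0.02, so Hopx alone does not show a change in lung tissue. Beyond the atrial list the medians of the marker lists lay between -0.27, for macrophages, and 0.17, for lymphocytes.

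**Figure D3:**
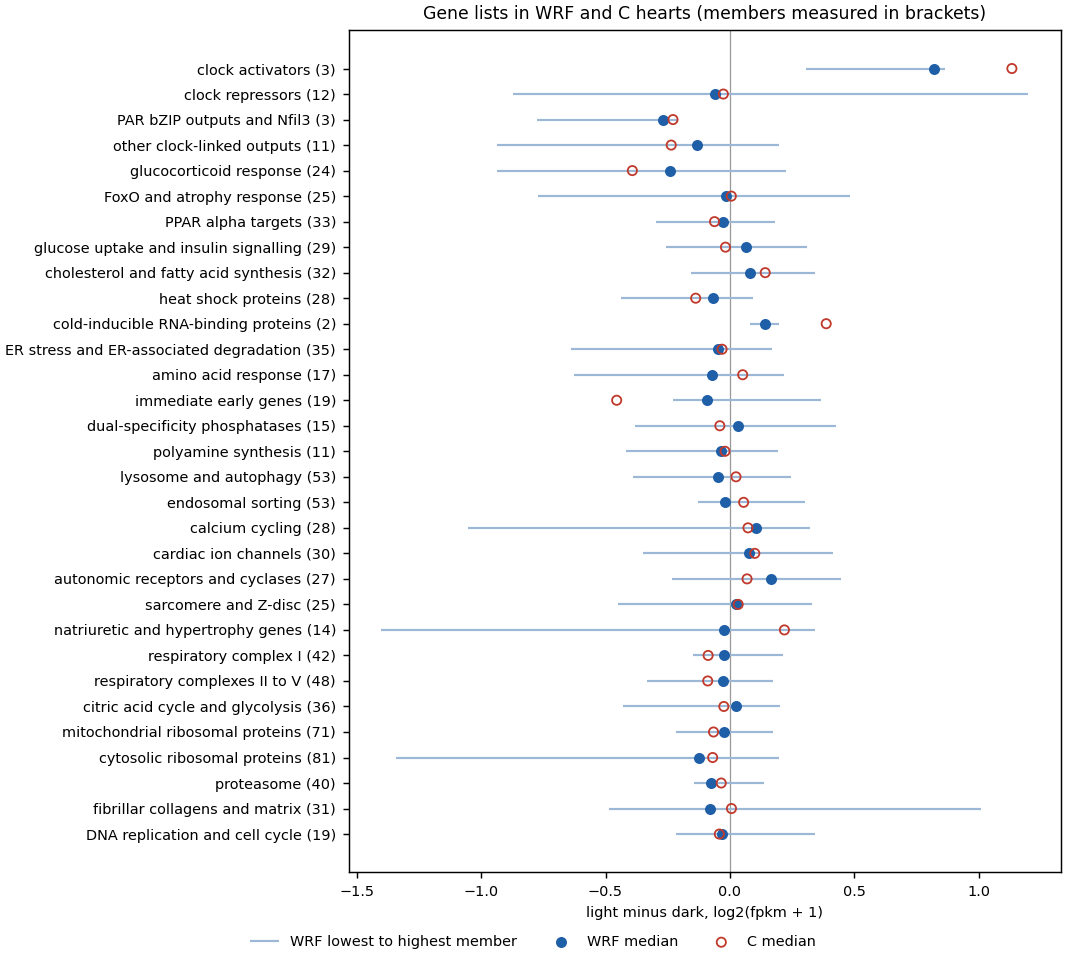
Light minus dark difference in log2(fpkm + 1) (x axis) for 31 gene lists; filled points are the WRF median, lines the range of its members, open points the C median, and brackets hold the number of genes measured. The glucocorticoid list lies to the left of 0 in both, and most medians lie within 0.1 of 0.

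The C rats, 9 in the light and 9 in the dark and none of them in the WRF comparison, were put through the same fit (added after seeing the data). There 26 genes (0.253%) were called, 8 higher in the light and 18 higher in the dark. All 26 had the same sign in the WRF rats, and 20 of them an unadjusted p under 0.05 there, against 2.64% of all genes. The same sign held for 22 of the 26 within each of the 3 WRF series, and genes are not independent replicates of one another.

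Tsc22d3 was -1.15 ± 0.21 SE in C and -0.94 ± 0.17 SE in WRF rats, and Rhobtb1 -1.46 ± 0.29 SE and -0.96 ± 0.27 SE. Ddit4 was -0.87 ± 0.16 SE in C and -0.77 ± 0.24 SE in WRF rats. Per2 was -1.32 ± 0.27 SE and -0.87 ± 0.28 SE, and Npas2 1.13 ± 0.23 SE and 0.82 ± 0.25 SE.

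Col5a3 was 1.26 ± 0.15 SE in C and 1.01 ± 0.21 SE in WRF rats, and Spon2, a secreted matrix protein, 1.03 ± 0.15 SE and 0.93 ± 0.20 SE. Cebpb, a transcription factor of the acute phase, was -1.05 ± 0.21 SE and -0.63 ± 0.29 SE, and Timp4, the metalloproteinase inhibitor of the heart, -0.76 ± 0.14 SE and -0.54 ± 0.18 SE. Of the 26 genes, 6 did not reach an unadjusted p under 0.05 in the WRF rats: Gadd45b, Slc37a1, Slc25a25, Rab20, Adcy6, and Eya2.

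In all 26 the WRF difference was the smaller, with a median of 66.4% of the C difference. They were chosen for passing the test in C rats, which favours large differences there, so this size is a description and not a test. In the other direction, of the 30 WRF genes above (15 per direction), 24 had an unadjusted p under 0.05 in the C rats, against 4.48% of all genes, and 8 were called there. Signs were shared by 30 of 30, although Tfrc was 0.00 ± 0.23 SE in the C rats. Of the 15 higher in the dark, 15 were under 0.05 in C rats, and of the 15 higher in the light 9. In 10 of the 30 the C difference was the smaller.

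**Figure D4:**
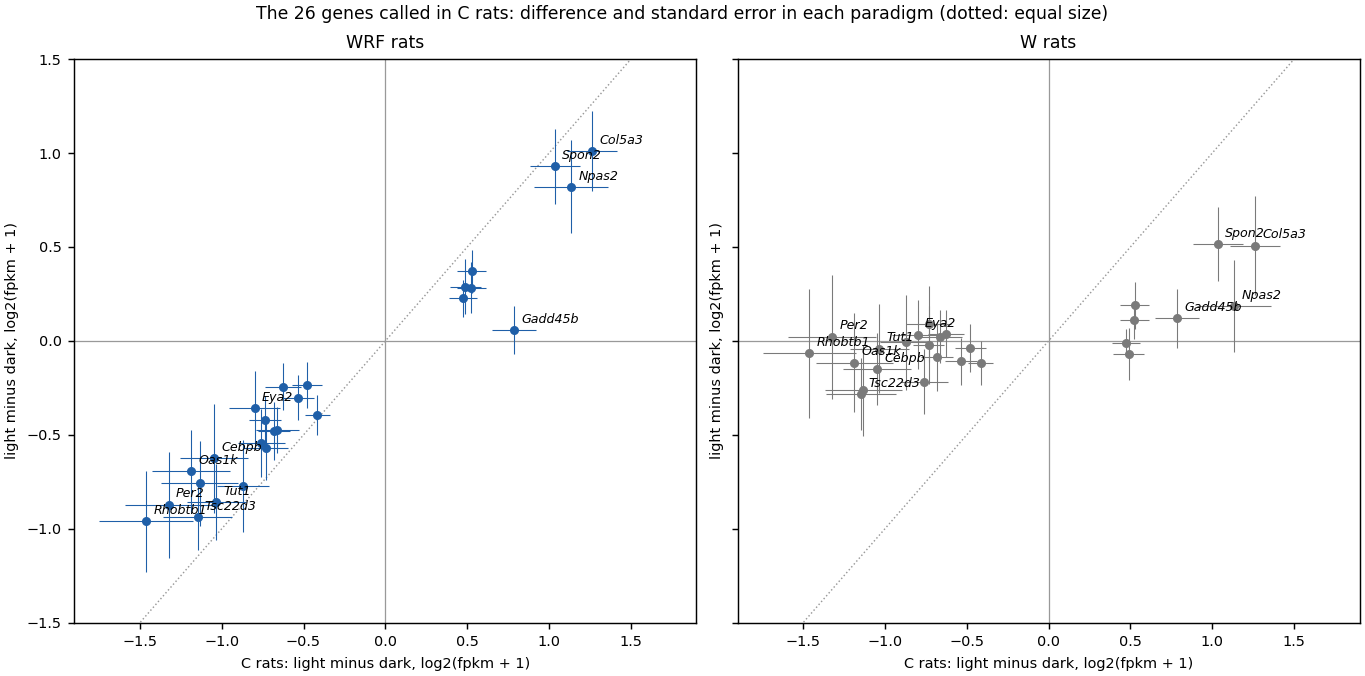
Light minus dark difference in log2(fpkm + 1) with its SE for the 26 genes called in C rats, C rats on the x axis, WRF rats (left) or W rats (right) on the y axis; the dotted line marks equal size. In WRF rats all 26 points keep their sign and Gadd45b lies nearest to 0, and in W rats, all 18 used, most points lie near 0.

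The difference itself was tested as the WRF minus C change in light minus dark, in 1 fit of 52 rats. It called 0 genes with limma, with 60 (0.585%) at an unadjusted p under 0.05 (144 with WRF51 and WRF62, 137 with the times of the other labels), and of the 18 clock genes Per2 had the smallest unadjusted p, 0.322. For Per2 it was 0.45 ± 0.45 SE and for Nr1d1 -0.31 ± 0.68 SE, so that a rhythm of another size could not be told from an equal one. The 5 genes of smallest p, of a mean of at least 5 fpkm, were Gadd45b, Med11, Nppb, Uchl3, and Dusp1, each at a limma adjusted p of 0.9999.

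Gadd45b, a stress-induced activator of the p38 pathway, was 4.80 to 7.80 fpkm in light and 3.58 to 7.08 fpkm in dark WRF rats, with medians of 5.45 and 5.96. In C rats it was 4.28 to 9.11 fpkm in the light and 2.19 to 4.47 fpkm in the dark (difference of the differences -0.73 ± 0.21 SE). Nppb, the gene of brain natriuretic peptide, had medians of 125 and 223 fpkm in light and dark WRF rats and of 210 and 89.8 fpkm in C rats (-1.63 ± 0.55 SE). Dusp1, a phosphatase of the stress kinases, had a value of 0.84 ± 0.31 SE, Med11, a subunit of the Mediator complex, -0.55 ± 0.18 SE, and Uchl3, a ubiquitin hydrolase, -0.31 ± 0.10 SE.

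The immediate early genes were a list whose medians differed, at -0.09 in WRF and -0.46 in C rats (19 of 26 measured). Unadjusted p-values under 0.05 were found for 0 of the 19 in WRF rats (2.64% of all genes) and for 8 in C rats (4.48% of all genes), each of the 8 higher in the dark. That difference was not tested as a list.

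In the W rats the same fit called 0 genes with limma, with 227 (2.21%) at an unadjusted p under 0.05. Of the 26 genes called in C rats, 19 had the same sign there and 1 an unadjusted p under 0.05. Without the series W33 to W38, which leaves 12 rats, 26 had the same sign and 9 an unadjusted p under 0.05, against 2.88% of all genes. That series was left out because its rhythm was known to stand apart, so these counts depend on the outcome and are a description. The WRF minus W difference called 0 genes with limma, with 181 (1.76%) at an unadjusted p under 0.05 and 57 without W33 to W38. Its 5 genes of smallest p, of the same minimum, were Tcp11l2 (0.60 ± 0.19 SE), Rnf130, a ubiquitin ligase (-0.29 ± 0.10 SE), Man1c1 (0.38 ± 0.13 SE), Ifrd1, a transcriptional co-regulator (-0.48 ± 0.18 SE), and S1pr1, the sphingosine receptor of blood vessels (-0.52 ± 0.19 SE).

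With the times of the other labels, which move 4 of the 16 rats between light and dark, 2 in place of 20 of the 26 C genes had an unadjusted p under 0.05, while 25 kept their sign. Arntl was then -0.28 and Per1 0.03. The 10 rats whose labels disagree are those of the series WRF41 to WRF46 and WRF50 to WRF55. Without the series WRF1 to WRF6, in which the labels agree, 11 of the 26 had an unadjusted p under 0.05, with 4 light and 6 dark rats, and all 26 kept their sign.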

How the data were processed

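RNA sequencing of whole rat hearts gave 1 deposited table of fpkm for 54 rats and 10257 genes. Per the labels and the study's methods, the authors made directional polyA libraries, aligned reads to rn6 with TopHat2, estimated fpkm with Cufflinks (versions not given in the sources used here) and kept genes above 1 fpkm in at least 18 rats, which all rows meet. The table holds no read counts and library depths were not used here, so no counting interval is given. All 54 columns were matched to rats by name, and times were taken from the titles. WRF51 and WRF62, with Ckm under 500 fpkm, were left out.

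Light was compared with dark by limma (3.58.1, R 4.3.3; trend and variance shrinkage over all genes) on log2(fpkm + 1) with Benjamini-Hochberg adjustment over 10257 genes and a threshold of 0.05. The pseudocount of 1 understates changes of low genes. Differences between WRF and C or W rats came from 1 fit of 6 groups. The exact Mann-Whitney test used all 11440 labellings (scipy 1.17.1, numpy 2.4.6, pandas 2.3.3, Python 3.11.15, matplotlib 3.10.9). Both were tested on simulated data. Each value is 1 rat, and p-values measure the spread between rats. In the light against dark comparisons that spread also holds changes among the 3 times pooled within each group.

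Named genes were up to 15 per direction among those called, filled with the smallest p of a mean of at least 5 fpkm and 1 sign in the 3 series of rats (rat numbers that run together), all clock genes, up to 4 members of each other list, and the 5 of smallest p per difference between groups. The rats, genes and 44 lists (31 pathways, 13 cell markers) were chosen with earlier results of these data known. The genes called in the C rats and single members of other lists were named after their values were seen, and the fits of the C and W rats and the F test among the 6 times were added after seeing the data. Of all genes, 497 share all values with another row, and 433 values are 0. Alternatives were another scaling, pseudocount and filter, other time labels, Myl7 or the series as a term, and leaving out each rat or series. A few genes that the rule names are not reported here. The authors' findings were not used.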

Additional observations from a re-analysis of the deposited data

Results flagged for a closer look

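In 8 of 90 groups looked at (45 genes, light and dark), 1 rat stood apart from the rest of its group by a gap larger than the 95% critical value of Dixon's test, which chance gives in about 1 in 20 groups. In 7 of these the rat was WRF41, taken at ZT9, the last of the light times. It was the highest light rat for Tsc22d3 (56.6 fpkm, next 37.3), Herpud1 (103 fpkm, next 66.0), Tef (37.9 fpkm, next 21.02), Naa60 (17.5 fpkm, next 12.7), Rhobtb1 (16.8 fpkm, next 9.17), Per1 (10.9 fpkm, next 5.34), and Tut1 (9.68 fpkm, next 5.89), and all of these genes had the higher dark mean. By the other labels WRF41 is also a light rat. WRF54, taken at ZT21, was the highest dark rat for Npas2 (2.44 fpkm, next 0.961).

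The libraries left out for their low Ckm held markers of other tissues above the C rats. The 10 macrophage markers summed to 18831 fpkm in WRF51 and 1361 fpkm in WRF62, against at most 413 fpkm in C rats, and the 7 lymphocyte markers measured to 2232 and 2394 fpkm, against 467 fpkm. The T cell marker Cd3e was at most 2.91 fpkm in C rats, so other genes made up most of the lymphocyte sum there. Whether that sum reflects lymphocytes was not tested. WRF51 also held lung epithelial markers (2505 fpkm, C rats up to 105) and mesothelial markers (581 fpkm, C rats up to 159). WRF62 held erythrocyte markers (142594 fpkm, C rats up to 69177) and neuronal and Schwann cell markers (53.8 fpkm, C rats up to 25.7).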

How the results depend on the processing

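Of 2573 values of 96 genes under the alternatives, 2522 kept their sign and 51 changed it, in 20 genes. Of the 841 values of the 29 genes chosen by p, 4 changed sign. Those 29 genes were also chosen for 1 sign in the 3 series, which favours a kept sign, so their count is a description. The count of called genes was 0 in all fits but 3. It was 1 (Tsc22d3, -0.92) when the means of the 3 light and the 3 dark times were compared, with the spread taken within times. It was 0 to 1 when 1 rat was left out (Col5a3, 1.14, without WRF54), and 2 in the F test among the 6 times. The count at an unadjusted p under 0.05 was 160 among genes of at least 5 fpkm and 197 to 365 when 1 rat was left out, and without WRF41 71 genes were higher in the light and 251 in the dark. For the difference from C rats it was 144 with WRF51 and WRF62 and 137 with the other labels, and for the difference from W rats 57 without W33 to W38 and 117 without WRF41 to WRF46. Of the 26 genes called in the C rats, 2 passed an unadjusted p of 0.05 with the other labels, 11 without WRF1 to WRF6, and 18 to 23 when 1 rat was left out.

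Signs changed with WRF51 and WRF62 for Cdh2 (-0.28), Adcy5 (-0.23), Fgf12 (-0.015), Ddit4l2 (-0.37), Adra1b (-0.39), Csnk1d (0.090), Dbp (0.018), Mthfd2 (0.17), and Med11 (0.0033). With the other labels they changed for Arntl (-0.28), Per1 (0.031), Per3 (0.23), Dbp (0.71), Dusp7 (0.020), Nppb (0.030), and Slc25a25 (0.0075). Not all of the other changes concern genes near 0. When 1 rat was left out, Nppb was -0.52 to -0.20 and Dusp1 0.057 to 0.35. Ciart was -0.20 with a pseudocount of 0.1, -4.84e-05 with Myl7, -0.050 without WRF1 to WRF6, -0.054 without WRF41 to WRF46, and -0.23 to 0.18 when 1 rat was left out. Nr1d2 was -0.011 with the series as a term, -0.00407 with Myl7, -0.21 without WRF41 to WRF46, and -0.16 to 0.20 when 1 rat was left out. Without WRF41 to WRF46 Csnk1e was -0.12 and Gadd45b -0.015; when 1 rat was left out they were -0.020 to 0.13 and -0.0084 to 0.099, and Dbp -0.53 to 0.049. Without WRF50 to WRF55 Dbp was 0.00977, Nppb 0.12, and Dusp1 -0.10. In mean ranks, light minus dark was -1.14 for Ciart and -0.38 for Nr1d2. The cause of these changes was not tested.

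No paired analysis was possible because the light and dark rats are different animals that share no rat number. With the series of rats as a term, 0 genes were called and 361 had an unadjusted p under 0.05, 149 higher in the light and 212 in the dark. With 2 or 3 rats a time, no read counts, and labels that disagree on the time of 10 rats, small differences could not be seen, and a p that missed the threshold does not show that light and dark hearts were alike.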
